A study of Mus musculus with 34 samples.

Results

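The genes examined here encode adult hemoglobin and the enzyme that supplies its heme in red cells. They are *Hba-a1* and *Hba-a2*, the alpha globin genes, *Hbb-bs* and *Hbb-bt*, the beta globin genes, and *Alas2*, the erythroid form of the first enzyme of heme synthesis. These 5 genes were taken by symbol from a table of 54532 genes, and all 5 were among the 22018 genes that passed the filter on low counts. RNA had been sequenced from 8 dorsal hippocampi of male C57BL/6J mice aged 2 to 3 months, with 1 library per mouse. All mice were wild type, were individually housed for 7 days and were handled. In the SOR group, 4 mice were habituated to an open field, were trained for spatial object recognition with glass objects in 3 sessions of 6 min and were euthanized 1 h later. In the homecage group, 4 mice stayed untrained and were euthanized at the same time of day. Perfusion before dissection is not described for this tissue in the sources used here, so whether blood had been flushed from the vessels is unknown.

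A red cell carries oxygen on a tetramer of alpha and beta globin chains, each of which holds a heme. Red cells lose their nucleus as they mature, and the young cells released into blood, the reticulocytes, still carry globin mRNA. Transcription of globin genes in red cell precursors depends on GATA1, KLF1 and a distant locus control region. Adult C57BL/6 mice carry the single haplotype of the beta globin locus, in which the adult genes are *Hbb-bs* and *Hbb-bt*. ALAS2 joins glycine and succinyl coenzyme A in erythroid mitochondria, and other cells use ALAS1. Hemoglobin transcripts have also been described in neurons and glia. In bulk tissue, fewer cells of a type and less RNA per cell cannot be told apart, and neither can RNA of blood and RNA of brain cells.

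On GRCm38, *Hba-a1* lies at chr11:32283511-32284465 and *Hba-a2* at chr11:32296489-32297298, both on the plus strand. *Hbb-bs* lies at chr7:103826534-103828096 and *Hbb-bt* at chr7:103812524-103813996, both on the minus strand. *Alas2* lies at chrX:150547375-150570638 on the plus strand. Each globin gene has a near copy, which limits how surely its reads can be assigned. The coding sequences of *Hba-a1* and *Hba-a2* differed at 1 of 429 bases and those of *Hbb-bs* and *Hbb-bt* at 1 of 444 bases in GENCODE. The following 60 coding bases, which are exonic, are shown because they hold the difference, given in capitals. Positions count from 1 at the first coding base. The alpha substitution is C381T and the beta substitution is C417T, with the base of the first gene of each pair written first.
Hba-a1, chr11:32284313-32284372, + strand: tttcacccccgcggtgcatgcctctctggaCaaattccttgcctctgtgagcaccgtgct
Hba-a2, chr11:32297130-32297189, + strand: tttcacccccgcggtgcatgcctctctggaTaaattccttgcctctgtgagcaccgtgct
Hbb-bs, chr7:103826665-103826724, - strand: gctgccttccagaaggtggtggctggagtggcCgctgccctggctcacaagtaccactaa
Hbb-bt, chr7:103812656-103812715, - strand: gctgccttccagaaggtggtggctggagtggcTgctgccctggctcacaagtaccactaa
Both differences fall on the third base of a codon. Of all stretches of 150 bases, the length of 1 sequenced read, in the transcript of *Hba-a1*, 48.4% were also in that of *Hba-a2*, and 65.7% of those of *Hba-a2* were in *Hba-a1*. For the beta pair, 58.7% of the stretches of *Hbb-bs* were in *Hbb-bt* and 50.7% of those of *Hbb-bt* were in *Hbb-bs*. The transcripts of *Hba-a1* and *Hbb-bs*, the only alpha and beta genes compared in this way, shared 0% of such stretches. How reads were split within a pair is not stated, so the values of single copies are uncertain, whereas no such stretch links *Hba-a1* to *Hbb-bs*.

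Promoters were compared because the globin genes are known to be switched on together in red cell precursors. The 250 bases before the RefSeq start site on GRCm38.p6 are shown for *Hba-a2* and for both beta genes, whose levels differed although their coding sequences hardly do. Capitals mark exact matches on either strand to short motifs. The GATA box was searched as TGATAA and, in its other common form, as AGATAA. The CACCC box was searched as CCACCC and, as in many beta globin promoters, as CACACCC. The other motifs were CCAAT and a box resembling TATA, which was searched as TATAAA and, with a changed first base, as CATAAA. A match overlapping or touching another gives 1 longer run of capitals.
Hba-a2, chr11:32296242-32296491, + strand: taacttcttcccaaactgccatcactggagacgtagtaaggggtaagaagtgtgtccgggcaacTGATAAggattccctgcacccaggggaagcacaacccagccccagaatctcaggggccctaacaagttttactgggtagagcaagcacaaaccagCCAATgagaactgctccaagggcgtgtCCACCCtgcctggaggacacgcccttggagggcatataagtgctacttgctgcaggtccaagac
Hbb-bs, chr7:103827929-103828178, - strand: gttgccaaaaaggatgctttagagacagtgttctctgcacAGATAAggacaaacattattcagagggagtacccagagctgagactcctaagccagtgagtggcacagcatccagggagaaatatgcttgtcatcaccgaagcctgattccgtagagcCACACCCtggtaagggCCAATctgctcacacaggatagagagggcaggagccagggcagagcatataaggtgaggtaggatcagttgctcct
Hbb-bt, chr7:103813924-103814173, - strand: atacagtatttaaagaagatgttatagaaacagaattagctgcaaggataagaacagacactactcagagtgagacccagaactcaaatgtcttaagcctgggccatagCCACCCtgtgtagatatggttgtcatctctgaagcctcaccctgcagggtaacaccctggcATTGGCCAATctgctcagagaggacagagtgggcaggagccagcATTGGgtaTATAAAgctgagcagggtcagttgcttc
*Hba-a2* and *Hbb-bs* each held 1 match to the GATA box, 1 to the CACCC box and 1 to CCAAT, as did *Hba-a1*. *Hbb-bt* held 0 matches to the GATA box, 1 to the CACCC box, 3 to CCAAT and 1 to the TATA-like box. Near forms were not counted, such as catataag in *Hba-a2* and *Hbb-bs* and ggataag in *Hbb-bt*, so a count of 0 does not mean that such a box is absent. In *Alas2*, the search found 1 GATA box, 3 overlapping CACCC boxes, 1 TATA-like box and 0 CCAAT matches. That TATA-like match lay at -209 to -204 from the start site, on the opposite strand. Among 32851 RefSeq promoters of 300 bases, 50 of them after the start, 18.6% held the GATA box, 36.5% the CACCC box, 37.4% CCAAT and 22.8% the TATA-like box. The matches are letters in a window and not evidence of binding.

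Libraries held 51406011 to 81525977 estimated counts. Levels are given as CPM, counts per 1000000 counts of the library after upper-quartile scaling. Together the 4 hemoglobin genes took 0.0094% of the counts in the lowest library, homecage replicate 1 (95% Wilson interval 0.00915 to 0.00966), and 0.0178% in the highest, SOR replicates 1 (0.0175 to 0.0181) and 4 (0.0174 to 0.0182). These intervals cover counting error only. The tissue was rich in neuronal RNA: *Snap25*, of the synaptic vesicle fusion machinery, had a mean of 1460 CPM and *Camk2a*, a kinase of excitatory synapses, 1240 CPM. Over the 8 libraries, summed hemoglobin RNA varied 1.9-fold, from 94.59 to 179.7 CPM. It was 172.3 CPM in SOR replicate 1 and 179.7 CPM in SOR replicate 4, and 94.59 to 123.2 CPM in the other 6 libraries. The homecage mean was 112.7 ± 13.06 CPM and the SOR mean 144.3 ± 36.7 CPM (SD, n = 4 each).

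*Hba-a1* was at 19.07, 23.8, 24.19 and 28.87 CPM in homecage replicates 1 to 4 and at 37.62, 23.07, 26.99 and 41.81 CPM in SOR replicates 1 to 4. The groups overlapped, since SOR replicates 2 and 3 lay inside the homecage range. Its SOR to homecage fold change was 1.35 (log2 0.43, SE 0.182) with an adjusted p of 0.463 in the quasi-likelihood test of edgeR over all genes tested, and an exact two-sided permutation test gave p = 0.2, where 70 assignments allow no p below 0.0286.

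*Hba-a2*, the second alpha gene, was at 24.02, 29.51, 27.14 and 29.89 CPM in the homecage replicates and at 36.99, 27.24, 26.93 and 40.26 CPM in the SOR replicates. Again SOR replicates 1 and 4 were above all homecage libraries and the other 2 were among them. The fold change was 1.19 (log2 0.25, SE 0.132, edgeR adjusted p = 0.568, exact permutation p = 0.257).

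*Hbb-bs* had the highest level of the members per length, with a mean of 99.17 CPM per kb of transcript over the 8 libraries, against 54.6 for *Hba-a2*, 40.31 for *Hba-a1*, 11.1 for *Hbb-bt* and 1.944 for *Alas2*. Ranges on this scale were 72.61 to 138.1 for *Hbb-bs*, 43.36 to 72.68 for *Hba-a2* and 27.29 to 59.82 for *Hba-a1*, so that the ranges of neighbours in this order touched or overlapped although the order was the same within every library, while *Hbb-bt* (8.387 to 15.89) and *Alas2* (1.651 to 2.311) lay apart from the others and from each other. Unscaled for length, *Hbb-bs* was at 45.6, 60.79, 53.2 and 58.0 CPM in the homecage replicates and at 86.75, 53.52, 53.95 and 86.41 CPM in the SOR replicates. The SOR libraries formed a pair near 86 CPM and a pair within the homecage range. The fold change was 1.29 (log2 0.37, SE 0.167, edgeR adjusted p = 0.505, exact permutation p = 0.229).

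*Hbb-bt*, the lower beta gene, was at 5.896, 7.136, 7.183 and 6.423 CPM in the homecage replicates and at 10.97, 7.187, 6.477 and 11.17 CPM in the SOR replicates. SOR replicate 3 lay below 2 homecage libraries, and replicate 2 barely above the highest. The fold change was 1.34 (log2 0.43, SE 0.177, edgeR adjusted p = 0.457, exact permutation p = 0.114).

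*Alas2* was at 4.022, 3.556, 3.749 and 3.534 CPM in the homecage replicates and at 4.67, 4.075, 3.362 and 4.708 CPM in the SOR replicates. The lowest of all 8 values was in a SOR library, replicate 3, so the groups overlapped at the bottom. The fold change was 1.13 (log2 0.18, SE 0.127, edgeR adjusted p = 0.687, exact permutation p = 0.229). Its 210.09 to 347.3 counts per library give a counting error of 5.37% to 6.9%, close to its coefficient of variation of 6.09% among homecage mice. For the other members counting error was at most 5.55%, and for *Hbb-bs*, with 2510.14 to 6451.24 counts, at most 2.0%.

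**Figure D1:**
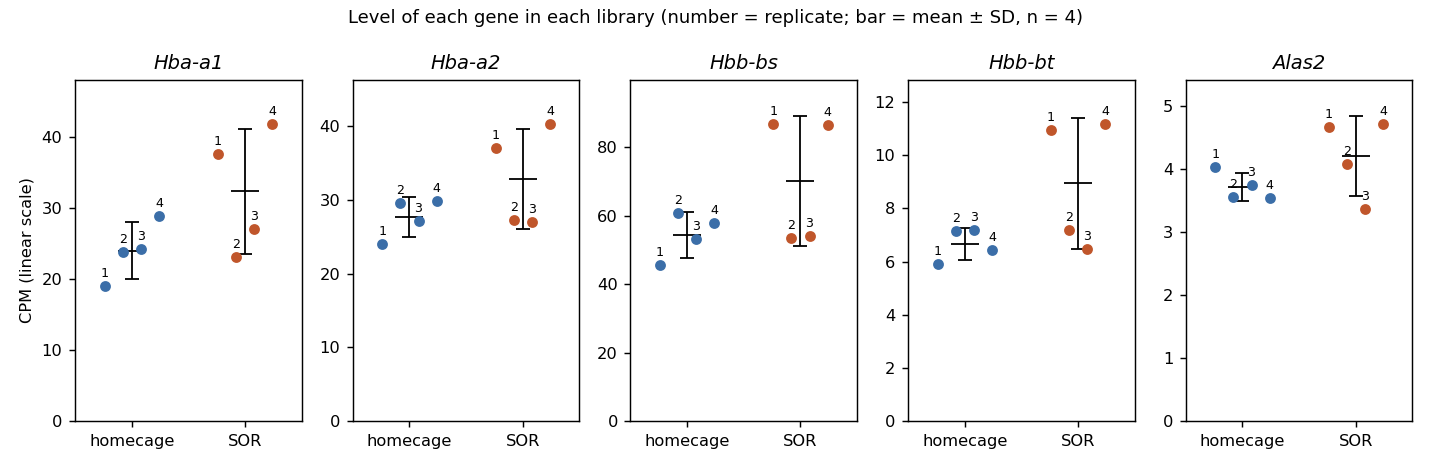
Level of the 5 genes in each library in CPM on linear axes that start at 0. Points are libraries numbered by replicate, and black bars are the mean ± SD of 4 mice. SOR replicates 1 and 4 are the 2 highest libraries in all 5 panels, and the groups overlap in each.

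Thus 0 of 5 members were called, which required an adjusted p under 0.05 with a change of more than 1.4-fold, beside 0.173% of all genes tested (38 of 22018) and 0.15% called higher (33). At an unadjusted p under 0.05 there were 2 members, *Hba-a1* and *Hbb-bt*, and 10.1% of all genes. All 5 members had higher means in SOR, their median log2 fold change being 0.366, while 43.8% of all genes were higher and their median was -0.0193. The members were read in the same mice, so these 5 directions are not independent. In 0 of 5 members did the groups stay apart, against 6.94% of all genes. SOR replicates 1 and 4 were the top 2 libraries for every member, and homecage replicate 1 was the lowest for the 4 hemoglobin genes. Among SOR mice the coefficient of variation was 27.2% for *Hba-a1*, 20.7% for *Hba-a2*, 27.0% for *Hbb-bs*, 27.6% for *Hbb-bt* and 15.0% for *Alas2*. Among homecage mice it was between 6.09% and 16.7%.

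Leaving out SOR replicate 1 took the log2 fold change to 0.35 for *Hba-a1*, 0.18 for *Hba-a2*, 0.24 for *Hbb-bs*, 0.31 for *Hbb-bt* and 0.12 for *Alas2*. Without SOR replicate 4 the values were 0.28, 0.13, 0.25, 0.30 and 0.12 in the same order. Without SOR replicate 3 they were 0.51, 0.33, 0.47, 0.55 and 0.27. Each member stayed higher in SOR with any 1 of the 8 libraries left out, and none was called.

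**Figure D2:**
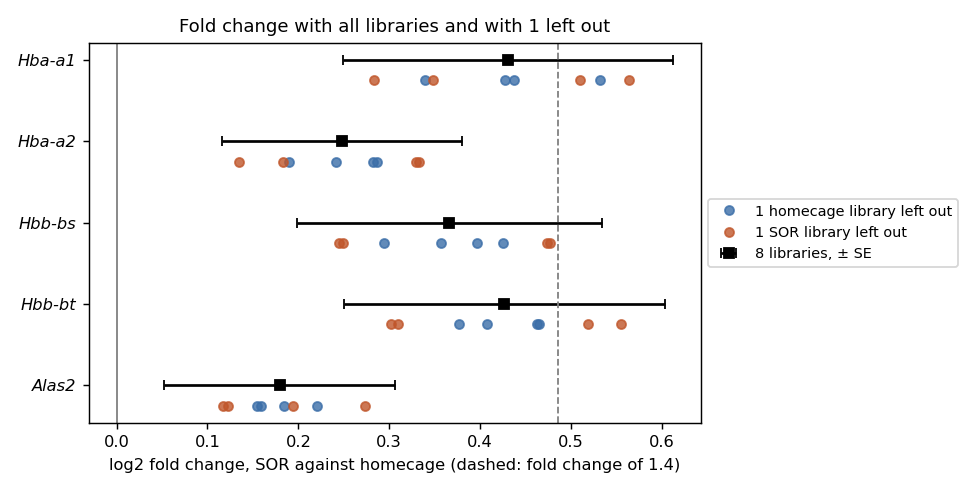
Log2 fold change of SOR against homecage for each gene on a linear axis. Black squares are the fit of 8 libraries with the SE, blue and orange points are fits without 1 homecage or 1 SOR library, and the dashed line is a fold change of 1.4. All points lie above 0, and those of *Hbb-bs* run from 0.24 to 0.48.

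Over the 8 libraries, r with *Hbb-bs* on log2 CPM was 0.987 for *Hba-a2*, 0.958 for *Hbb-bt* and 0.942 for *Hba-a1*. The exact permutation p adjusted over 17 relations was 0.0097, 0.0201 and 0.019. Rank correlation, rho, was 0.881, 0.595 and 0.786 in the same order and did not pass (adjusted exact permutation p = 0.123, 0.608 and 0.237). Since SOR replicates 1 and 4 stood apart in *Hbb-bs*, relations with *Hbb-bs* were read in the other 6 libraries, on log2 CPM and with exact two-sided permutation tests over the 720 orderings. There *Hba-a2* had r = 0.974 (exact permutation p = 0.0153) and rho = 0.771 (exact permutation p = 0.103). *Hba-a1* had r = 0.731 (exact permutation p = 0.1) and rho = 0.543 (exact permutation p = 0.297), and *Hbb-bt* had r = 0.614 (exact permutation p = 0.196) and rho = 0.0857 (exact permutation p = 0.919). *Alas2* ran the other way in these libraries, with r = -0.615 (exact permutation p = 0.206) and rho = -0.6 (exact permutation p = 0.242). After Benjamini-Hochberg adjustment over the 17 relations computed with *Hbb-bs*, the exact permutation p of r was 0.26 for *Hba-a2* and 0.385 for the other 3 members. None passed without the pair of libraries at the top. This test could hardly be passed, since 6 libraries give few orderings and leaving out extreme *Hbb-bs* values narrows its range. Whether the hemoglobin genes vary together apart from SOR replicates 1 and 4 thus cannot be decided here. The closest course was that of *Hba-a2* and *Hbb-bs*. A close course in these 6 libraries was not particular to hemoglobin, since the summed hippocampal neuron genes had r = 0.877 with *Hbb-bs* (exact permutation p = 0.0403, adjusted 0.342) and the total count had r = 0.731 (exact permutation p = 0.0819, adjusted 0.385). *Hba-a1* and *Hbb-bs* share no stretch of 150 bases, and *Hba-a2* was not compared with *Hbb-bs* in this way. The part of shared reads in the relations within an alpha or a beta pair was not tested.

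**Figure D3:**
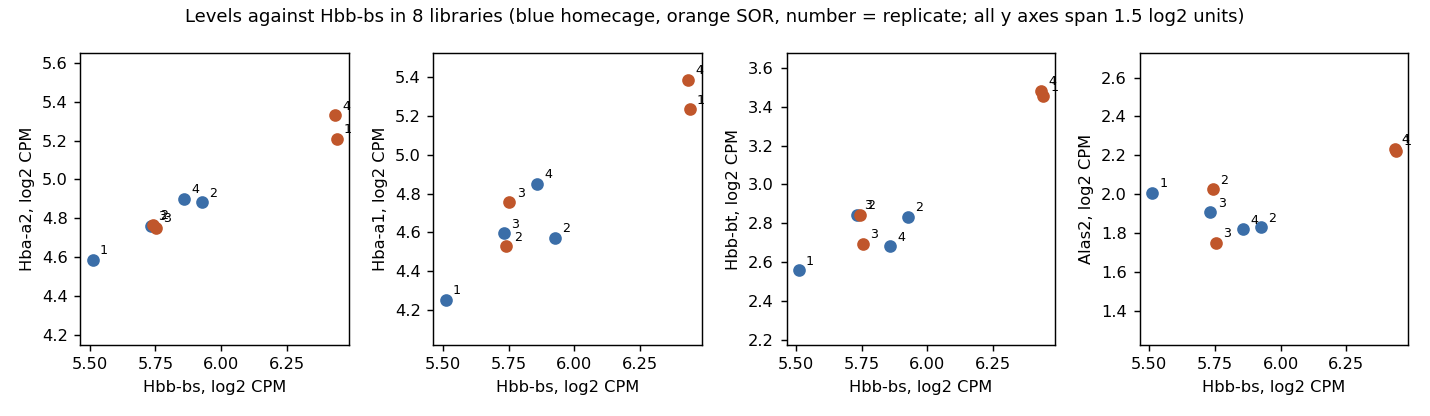
Log2 CPM of *Hba-a2*, *Hba-a1*, *Hbb-bt* and *Alas2* against *Hbb-bs* in 8 libraries, blue for homecage and orange for SOR, numbered by replicate, with y axes of equal span. SOR replicates 1 and 4 sit at the top right of each panel, and in the other 6 libraries *Hba-a2* follows *Hbb-bs* most closely (r = 0.974).

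Ratios between members were compared to ask whether the composition of the hemoglobin RNA differed between the groups. The ratio of alpha to beta counts was 0.837, 0.785, 0.85 and 0.912 in the homecage replicates and from 0.764 to 0.892 in the SOR replicates, with 0.764 in replicate 1 and 0.841 in replicate 4. The groups overlapped, and of the libraries with the most hemoglobin RNA 1 lay just below and 1 inside the homecage range. The group difference was -0.03 on the log2 scale (exact permutation p = 0.686, adjusted over 4 ratios 0.686). The ratio of *Hbb-bs* to *Hbb-bt* lay between 7.4 and 9.02 in homecage and between 7.44 and 8.32 in SOR mice (log2 difference -0.05, exact permutation p = 0.543, adjusted 0.686). For *Hba-a1* to *Hba-a2* the ratio was 0.794 to 0.966 in homecage and 0.847 to 1.04 in SOR mice, a log2 difference of 0.18 (exact permutation p = 0.114, adjusted 0.457). *Alas2* counts were 0.0586 to 0.0884 of those of *Hbb-bs* in homecage mice and 0.0539 to 0.0763 in SOR mice (log2 difference -0.17, exact permutation p = 0.4, adjusted 0.686). The 2 lowest *Alas2* ratios, 0.0539 and 0.0546, were those of SOR replicates 1 and 4, where *Alas2* was at its highest but by a smaller factor than *Hbb-bs*.

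Embryonic and other globin genes were next to undetected. Of 10 such genes, 6 were at 0 counts in every library, among them *Hba-x* and *Hbb-bh1*, which encode embryonic chains. A count of 0 allows up to 3 counts, or 0.0589 CPM in the shallowest library. The highest, *Hbq1b* and *Hbq1a* of the theta globin genes, had means of 0.129 and 0.0785 CPM, and the 10 genes summed to at most 0.409 CPM in any library. Of the globins outside red cells, *Cygb*, cytoglobin of fibroblast-like cells and some neurons, was at 37.6 ± 0.81 CPM without training and 36.4 ± 2.38 CPM with it (homecage and SOR mice, SD, n = 4 each). *Ngb*, the neuronal neuroglobin, was at 1.03 ± 0.953 and 0.744 ± 0.452 CPM. With *Mb*, myoglobin, 3 of 3 were tested, 0 were called and all 3 had lower means in SOR, and their median log2 fold change was -0.439.

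Other red cell genes were low beside the hemoglobins. Of 17 erythroid genes with a row, 6 passed the filter, 0 were called, and the median log2 fold change of these 6 was 0.0107. *Slc4a1*, the band 3 anion exchanger of the red cell membrane, had 1.7 to 16.04 counts in 7 libraries and 70.87 counts in homecage replicate 2, which was not a library with high hemoglobin. *Cldn13*, an erythroid claudin of the mouse, was at 0 in all libraries. The list was carried by *Tspan33*, a tetraspanin of erythroid precursors that other cells also express, at 14.4 ± 2.23 CPM in the homecage group and at 17.2 ± 3.5 CPM in the SOR group (log2 fold change 0.26, SE 0.148, edgeR adjusted p = 0.608). *Tal1*, a transcription factor of blood and of some neurons, had a mean of 0.766 CPM. Summed, the erythroid genes were at 14.1 to 18.9 CPM in homecage mice and at 17.5 to 25.3 CPM in SOR mice. The 2 highest sums were in SOR replicates 1 (25.3 CPM) and 4 (19.4 CPM), as for hemoglobin. *Tspan33* alone was at 22.2 and 16.8 CPM in these libraries. Over the 8 libraries the log2 sum had r = 0.636 with *Hbb-bs* (adjusted exact permutation p = 0.297), and r = -0.186 without SOR replicates 1 and 4.

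The shared enzymes of heme synthesis were expressed above *Alas2*. All 12 genes of heme synthesis and transport were tested, 0 were called, 3 had higher and 9 lower means in SOR, and the median log2 fold change was -0.0481. *Alas1*, the housekeeping form of the first enzyme, was at 68.8 ± 2.88 CPM in homecage mice against 67.2 ± 3.77 CPM in SOR mice, and *Fech*, which inserts iron into the ring in the last step, at 48.5 ± 1.78 and 46.6 ± 3.04 CPM. The largest difference in the list was that of *Urod*, uroporphyrinogen decarboxylase, with 25.2 ± 1.75 CPM in homecage mice against 19.3 ± 3.7 CPM in SOR mice (log2 fold change -0.38, SE 0.121, edgeR adjusted p = 0.311). The sum of the list varied 1.11-fold over the 8 libraries, against 1.9-fold for the hemoglobin genes. It was 294 to 310 CPM in the homecage replicates and 311, 281, 282 and 294 CPM in the SOR replicates, so that among SOR mice replicates 1 and 4 were the highest. On deviations from group means in the 8 libraries, the log2 sum had r = 0.848 with *Hbb-bs* (adjusted permutation p = 0.0249). This p is approximate, since the orderings ran across both groups, which values centred within groups do not strictly allow. On the levels themselves r was 0.384 over the 8 libraries and 0.31 without SOR replicates 1 and 4, and neither passed the test.

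Genes that clear heme and hemoglobin were also compared. Of 7 genes tested, 0 were called, and their median log2 fold change was 0.0869. *Lrp1*, a receptor that takes up hemopexin with heme, had a mean of 275 CPM and *Hmox2*, the constitutive heme oxygenase, 65.5 CPM. *Hmox1*, the inducible heme oxygenase, was at 3.55, 2.88, 3.46 and 3.52 CPM in the homecage replicates and at 4.44, 3.36, 3.83 and 4.04 CPM in the SOR replicates (log2 fold change 0.22, SE 0.123, edgeR adjusted p = 0.581). *Cd163*, the macrophage receptor for hemoglobin bound to haptoglobin, had its 2 highest values, 2.09 and 1.85 CPM, in SOR replicates 1 and 4, and was at 1.09 to 1.42 CPM in the others (log2 fold change 0.35, SE 0.202, edgeR adjusted p = 0.611). *Blvra*, biliverdin reductase A, was lower in every SOR library than in every homecage library, with 6.61 ± 0.486 CPM against 7.87 ± 0.469 CPM (log2 fold change -0.25, SE 0.0909, edgeR adjusted p = 0.384). It was the only 1 of the 7 genes tested in which the groups did not overlap, against 6.94% of all genes.

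In none of the lists for platelets, neutrophils, lymphocytes and monocytes were SOR replicates 1 and 4 the 2 highest libraries in summed level. Few genes carried these sums, such as *Fn1*, *Ighm*, *Cxcr2* and *Itga2b*, and more specific markers had few counts. *Pf4* and *Ppbp* had at most 18.19 and 18.88 counts in any library, *S100a8* and *Cd3e* at most 2.96 and 2.46. The sums thus cannot show whether other blood cells followed the hemoglobin level. Platelet genes, such as *Itga2b* and *Gp1ba* of platelet adhesion receptors with means of 1.31 and 1.06 CPM, summed to 4.12 to 6.32 CPM over homecage mice and to 4.32 to 6.58 CPM over SOR mice, with 4.32 CPM in SOR replicate 1 and 4.68 CPM in SOR replicate 4. *Pf4* and *Ppbp*, chemokines of platelet granules, had means of 0.153 and 0.158 CPM. Of 11 platelet genes, 6 were tested and 0 called. Of 13 neutrophil genes, 2 were tested and 0 called. These were *Cxcr2*, a chemokine receptor, and *Mmp9*, a protease, at 2.1 and 0.721 CPM, while the abundant neutrophil genes *S100a8* and *S100a9* had means of 0.0188 and 0.047 CPM, and *Elane* and *Ly6g* were at 0 throughout. Of 15 lymphocyte genes, 6 were tested and 0 called, led by *Ighm*, the heavy chain of IgM, at 10.2 ± 1.07 and 7.73 ± 1.69 CPM, and *Lck*, a kinase of T cells, at 0.661 CPM. The B cell gene *Ms4a1* was at 0.602 CPM and the T cell gene *Cd3e* at 0.0134 CPM. Of 6 monocyte genes, 4 were tested and 0 called. The highest were *Fn1*, fibronectin, which other cells also make, with 35.8 CPM and *S100a4* with 1.26 CPM, and the sum was 30.1 to 42.7 CPM over homecage mice and 32.9 to 42.2 CPM over SOR mice.

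Vessel and border tissue was measured beside the hemoglobins because blood lies in vessels and in the choroid plexus. Of 15 endothelial genes tested, 0 were called, and the median log2 fold change was -0.0107. Their sum was 237 to 282 CPM over homecage mice and 255 to 264 CPM over SOR mice, and it was 262 CPM in both SOR replicate 1 and SOR replicate 4. *Flt1*, a VEGF receptor, had a mean of 36.7 CPM. *Slc2a1*, the glucose transporter of the blood-brain barrier, was at 24.8 ± 1.8 CPM in homecage mice against 32.1 ± 1.19 CPM in SOR mice, higher in 4 of 4 SOR libraries, with an edgeR adjusted p of 0.0403 and a log2 fold change of 0.37 (SE 0.0622), short of the fold change for a call. It was about as high in SOR replicates 2 and 3 (32.2 and 30.4 CPM) as in replicates 1 and 4 (32.7 and 33.0 CPM). In 4 of the 15 endothelial genes the groups did not overlap, against 6.94% of all genes, and the other 3 were lower in every SOR library. *Cldn5*, a tight junction claudin, was at 27.7 ± 3.02 CPM in homecage mice against 22.4 ± 0.732 CPM in SOR mice (log2 fold change -0.30, SE 0.0785, edgeR adjusted p = 0.199). *Kdr*, a VEGF receptor, was at 12.6 ± 1.2 against 9.71 ± 1.27 CPM (log2 fold change -0.37, SE 0.11, edgeR adjusted p = 0.266), and *Egfl7*, a secreted endothelial factor, had a log2 fold change of -0.22 (SE 0.0817, edgeR adjusted p = 0.392). Of 8 mural cell genes, 0 were called, and the highest were the pericyte markers *Rgs5*, with 84.6 ± 5.79 CPM in homecage mice and 79.0 ± 7.06 CPM in SOR mice, and *Vtn*, with 49.2 ± 5.81 and 50.8 ± 3.14 CPM.

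Choroid plexus genes varied 127-fold in sum over the libraries. The sum was 1150, 32.9, 71.8 and 932 CPM in the homecage replicates and 4180, 933, 837 and 47.4 CPM in the SOR replicates. The 2 libraries with the most hemoglobin RNA thus held the highest choroid plexus sum and the second lowest. All 11 genes had higher means in SOR, 0 were called, and the median log2 fold change was 1.26. They include *Ttr*, the thyroxine carrier transthyretin, with a mean of 887 CPM, and *Kl*, klotho, with 42.3 CPM. Meningeal genes summed to 21.9 to 55.8 CPM in homecage mice and to 99.5, 53.8, 42.4 and 45.7 CPM in SOR replicates 1 to 4. All 8 had higher means in SOR with a median log2 fold change of 0.209, 0 were called, and the highest were *Igf2*, a growth factor, at 21.1 CPM and *Dcn*, decorin, at 13.4 CPM. SOR replicate 1 thus held the most meningeal and choroid plexus RNA besides much hemoglobin RNA, whereas SOR replicate 4 held as much hemoglobin RNA with a meningeal sum inside the homecage range and a low choroid plexus sum. What part such tissue had in the hemoglobin levels was not tested.

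**Figure D4:**
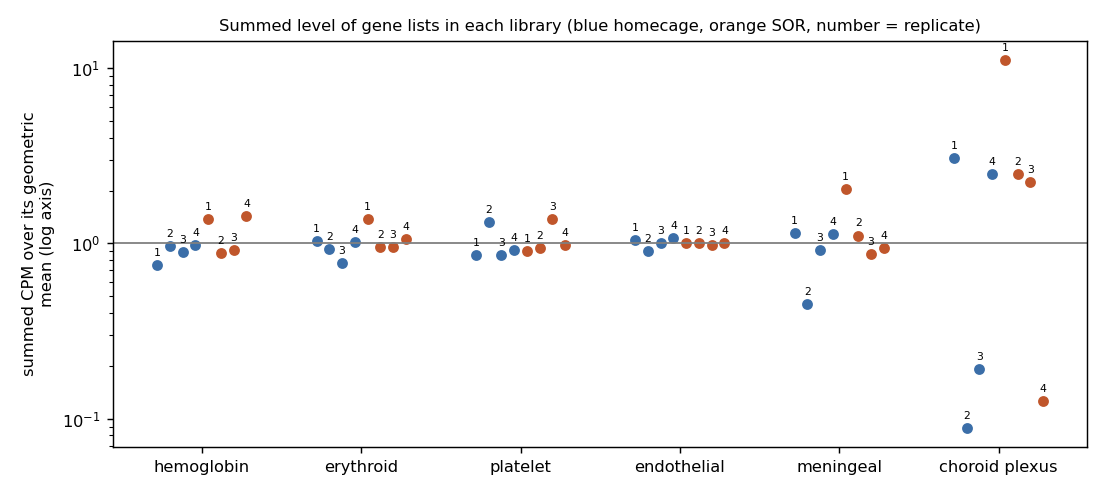
Summed CPM of the 4 hemoglobin genes and of 5 gene lists in each library, divided by the geometric mean of the 8 libraries, on a log axis, with blue for homecage and orange for SOR. SOR replicates 1 and 4 lead the hemoglobin sum (172.3 and 179.7 CPM), whereas the choroid plexus sum is 4180 CPM in the former and 47.4 CPM in the latter.

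The genes whose log2 CPM was most like that of *Hbb-bs* over the 8 libraries were sought among 16347 genes whose mean reached 1 CPM, as a description that SOR replicates 1 and 4 dominate. Outside the members, the highest Pearson r were 0.977 for *Dnttip2*, 0.971 for *Creb3l2*, 0.968 for *Gm13502*, 0.965 for *Prmt5*, 0.965 for *Bud23*, 0.961 for *Nhlrc1*, 0.955 for *Sub1*, 0.946 for *Mmp17*, 0.944 for *Api5* and 0.944 for *Zfand3*. In all, 58 genes (0.355%) reached 0.9 and 7 reached 0.95. *Hba-a2* had a higher r, 0.987, than any of them, *Hbb-bt* had 0.958, *Hba-a1* 0.942 and *Alas2* 0.692. None of these 10 genes is a marker of red cells. *Sub1*, a transcriptional coactivator, was at 143 ± 2.06 CPM in homecage mice and at 146 ± 6.93 CPM in SOR mice, a spread far smaller than that of *Hbb-bs*, and *Creb3l2*, a membrane-bound transcription factor, was at 7.12 ± 0.622 and 8.71 ± 1.48 CPM.

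Finally, the summed hemoglobin level was added to the model of the learning comparison to see what it did to genes called between SOR and homecage. Without it 38 genes were called and with it 22, of which 21 were among the 38 and 1 was not. All 38 kept the sign of their fold change, and the log2 fold changes moved by a median of 0.0671 and by at most 0.205. The immediate early genes *Arc*, *Fos* and *Egr1* were called in both fits, with log2 fold changes of 1.42, 1.89 and 1.09 without the hemoglobin level and 1.34, 2.06 and 1.29 with it. Those of *Nr4a1*, *Atf3* and *Egr4*, also immediate early genes, were 1.12, 1.17 and 1.17 without it and 1.01, 1.11 and 1.18 with it, but these 3 were no longer called. The model with the hemoglobin level has 1 more coefficient on 8 libraries, and whether the lost calls relate to blood was not tested.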

How the data were processed

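Total RNA of dorsal hippocampus was prepared per the paper's methods with a stranded kit that removes ribosomal RNA (the labels name polyA RNA) and sequenced as paired reads of 150 bases. The authors used bcbio-nextgen with STAR and featureCounts on mm10. The deposited values are estimated counts per gene from tximport, without normalization, and 52.6% of them are not whole numbers. The quantifier behind them is not given in the sources used here, nor is the treatment of reads that fit both copies of a globin gene. The spatial and single-nucleus data were not analysed here.

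Counts were rounded, filtered with filterByExpr and scaled by upper quartile, and 4 SOR libraries were compared with 4 homecage libraries by the quasi-likelihood method of edgeR 4.0.16 (R 4.3.3). A gene counted as called when its Benjamini-Hochberg adjusted p over all genes tested was under 0.05 and it changed by more than 1.4-fold. Permutation tests were two-sided on log2 CPM. Ratios had 0.5 counts added to each term. Gene records come from GENCODE M21 (54495 of 54532 rows matched), promoters from RefSeq (5 of 5 members matched). The fit was tested on simulated data with changes larger than those of the members, which does not bear on changes as small as theirs. Scripts ran in Python 3.11.15 with scipy 1.17.1.

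Total counts of 51406011 to 81525977 per library leave counting error below the spread between mice over all genes, though close to it for *Alas2* in homecage mice: the chi-square per degree of freedom between replicates was 11.97 to 53.78. Replicates are separate mice.

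The members and the gene lists were chosen with earlier results of these data known. Named from each list were the 2 members with the highest mean CPM and any called member, and the 10 genes most like *Hbb-bs*. Other list members, the cell markers among them, and the genes named for the model with hemoglobin were picked after their values were seen. A member of the lists is not reported here. Other settings tried were scaling by TMM, RLE or library size alone, 2 other filters, the likelihood ratio test, DESeq2 1.42.0, limma-voom (limma 3.58.1), 1 to 3 RUVs factors, a replicate block, each pair of near-identical genes summed, a hemoglobin covariate, a pseudocount of 1 and each library left out.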

Additional observations from a re-analysis of the deposited data

How the results depend on the processing

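Each of the 5 members stayed higher in SOR and uncalled under every alternative scaling, filter, test and number of RUVs factors, and with each library left out. The lowest adjusted p was that of *Hbb-bs*, 0.0757 with 2 RUVs factors and 0.0856 with 3 (edgeR). Summing near-identical copies gave log2 fold changes of 0.34 for the alpha pair and 0.37 for the beta pair, with edgeR adjusted p of 0.496 and 0.491. Log2 fold changes in fits without 1 library ranged from 0.28 to 0.56 for *Hba-a1*, 0.13 to 0.33 for *Hba-a2*, 0.24 to 0.48 for *Hbb-bs*, 0.30 to 0.55 for *Hbb-bt* and 0.12 to 0.27 for *Alas2*. Same-numbered homecage and SOR libraries did not deviate together (r of -0.0827 to 0.0443, against -0.173 to 0.192 for other numbers), so the numbers were not used as pairs in the main fit. Whether libraries of the same number shared any handling was not tested. With a replicate block the log2 fold changes were 0.41, 0.23, 0.34, 0.39 and 0.17 in the order above, and 30 genes were called.

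The number of genes called was 38 as reported, 105 with the likelihood ratio test and 114 with DESeq2, and it was 22 with the hemoglobin covariate and 22 to 38 with 1 library left out (22 without homecage replicate 2, 25 without homecage replicate 4). The cause was not tested. The alpha to beta ratio changed sign without homecage replicate 4 (0.0117) and without SOR replicate 1 (0.0151), and ran from -0.0604 to 0.0151 over the libraries left out.

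Without SOR replicates 1 and 4, which had the *Hbb-bs* values farthest from the median, r with *Hbb-bs* was 0.731 for *Hba-a1*, 0.974 for *Hba-a2* and 0.614 for *Hbb-bt*, no longer past an adjusted exact permutation p of 0.05, with 6 libraries in place of 8. It changed sign to -0.615 for *Alas2*, -0.186 for erythroid genes, 0.535 for clearance genes, 0.51 for platelet genes, 0.527 for lymphocyte genes and -0.621 for meningeal genes, none of which passed with 8 libraries. With TMM factors it was 0.0682 for clearance, 0.0144 for platelet, 0.0307 for monocyte, 0.0157 for endothelial and 0.0342 for mural genes, each near 0 on either side. On deviations from group means, heme synthesis genes had r = 0.848 (adjusted permutation p = 0.0249, approximate for centred values), which did not pass otherwise.

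Depth limits *Slc4a1* and the other erythroid membrane genes, which had few counts. With 4 mice per group and 2 high SOR libraries, no member passed the correction over all genes tested, and the groups overlapped in each. Hemoglobin RNA of blood, vessels or brain cells cannot be told apart.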
